A study of Mus musculus and Macaca mulatta with 39 samples.

Results

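The stretch described here is the part of mouse chromosome 8 that holds Gse1 and the longest H3K27ac locus of the series, a window of 450 kb that begins at 122700001 on mm9. A locus here joins regions of the 8 lists of a mark wherever they touch or overlap, and the longest for H3K27ac ran from 122875276 to 123068025, a span of 192750 bp. All called regions that reach into the window were taken, 697 of the 921935 regions in the 16 mouse lists. The window was chosen by the length of that merged H3K27ac locus, so the H3K27ac values inside that locus are given as a description with no test, while loci of the window outside it were tested. The next longest H3K27ac locus, on chromosome 5, spanned 113926 bp. That the window holds Gse1 is taken from the rule by which it was chosen, because no mm9 gene table was used here.

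Embryonic cortex of C57BL6J mice was profiled by ChIP-seq for H3K27ac (antibody Abcam ab4729) and H3K4me2 (antibody from Millipore) in samples taken at embryonic day 11.5 (E11.5, whole cortex), E14.5 (whole cortex) and E17.5 (frontal and occipital cortex, taken separately). Each of these 4 tissues had 2 biological replicates, and the series' design text ties the marks of a replicate to a shared input. All mice were of this strain, and the labels give no mutation or treatment. Chromatin came from whole tissue, so that fewer cells carrying a mark and less of the mark per cell cannot be told apart. The deposited lists hold positions only, and read depth is therefore unknown. The 8 H3K27ac lists covered 63.1 to 169 Mb of the genome and the 8 H3K4me2 lists 65.3 to 162 Mb. Within a list, neighbouring regions lay at least 1025 bp apart, so shorter breaks inside a region are not visible. The p-values below set differences between tissue means against the spread between replicates, estimated from all 8 lists of a mark.

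Gse1 encodes a coiled-coil protein that in human cells has been found together with CoREST and histone deacetylases, enzymes that remove acetyl groups from histones. H3K27ac is an acetylation of histone H3 at promoters and enhancers in use, and long unbroken stretches of it often lie over clusters of enhancers. H3K4me2 is a dimethylation of histone H3 found at promoters and enhancers. In the gene order of RefSeq on GRCm38.p6, the protein-coding genes 6430548M08Rik and Cibar2 precede Gse1, and Gins2, whose product belongs to the replication complex GINS, and Emc8, a subunit of the endoplasmic reticulum membrane complex, follow it. Gse1 spans 352883 bp there, and the microRNA gene Mir7687 lies within it. How the gene lies relative to the longest H3K27ac locus was not determined.

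RefSeq lists 3 start sites for Gse1, and the sequences around them are shown because both marks collect at promoters. Each runs from 250 bases before to 50 bases after the start, 5′ to 3′, on the plus strand of GRCm38.p6, a build other than that of the region lists. No position was converted between builds, so which called regions hold these starts was not determined. Capitals mark CG dinucleotides. The stretches lie at chr8:120488616-120488915 (start 1), chr8:120535607-120535906 (start 2) and chr8:120537159-120537458 (start 3).
Gse1 start 1: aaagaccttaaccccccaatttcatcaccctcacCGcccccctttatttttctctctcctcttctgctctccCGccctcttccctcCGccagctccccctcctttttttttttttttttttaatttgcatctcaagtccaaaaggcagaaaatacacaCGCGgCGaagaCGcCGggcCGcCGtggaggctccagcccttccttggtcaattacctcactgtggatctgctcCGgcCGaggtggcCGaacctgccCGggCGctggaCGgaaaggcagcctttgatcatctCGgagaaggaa
Gse1 start 2: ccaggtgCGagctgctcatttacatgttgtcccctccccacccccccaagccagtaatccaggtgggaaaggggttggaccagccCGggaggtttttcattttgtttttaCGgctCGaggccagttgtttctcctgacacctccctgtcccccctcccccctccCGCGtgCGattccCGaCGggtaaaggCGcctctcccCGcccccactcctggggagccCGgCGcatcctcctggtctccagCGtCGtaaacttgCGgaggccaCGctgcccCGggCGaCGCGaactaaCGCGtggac
Gse1 start 3: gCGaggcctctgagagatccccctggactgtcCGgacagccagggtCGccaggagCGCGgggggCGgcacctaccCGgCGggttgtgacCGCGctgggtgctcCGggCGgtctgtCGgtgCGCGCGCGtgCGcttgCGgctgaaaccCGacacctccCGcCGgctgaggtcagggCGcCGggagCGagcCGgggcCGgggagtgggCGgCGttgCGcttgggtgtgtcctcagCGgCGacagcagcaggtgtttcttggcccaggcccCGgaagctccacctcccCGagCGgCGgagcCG

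The 3 starts differed in CG content. Start 3 held 37 CG dinucleotides, and 5.58% of the 32851 RefSeq promoters of 300 bases held at least as many. Start 2 held 23 (21.5% of promoters) and start 1 held 17 (31.4%), against a median of 7. The letters GGGCGG, searched on both strands and overlapping the CG count, occurred 3 times at start 3, 1 time at start 2 and 2 times at start 1, and in 35.7% of all promoters. The letters TATAAA were in none of the 3 windows on either strand and in 13.6% of all promoters. Starts 2 and 3 lie 46991 and 48543 bp beyond start 1.

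H3K27ac covered most of the longest locus at E14.5 and E17.5 and a smaller share of it at E11.5. The E11.5 lists covered 122575 and 80400 bp, and the E14.5 lists 187575 and 177025 bp. The E17.5 frontal lists covered 186300 and 165300 bp, and the E17.5 occipital lists 179625 and 135975 bp. Every later list covered more than both E11.5 lists, while the E14.5, frontal and occipital lists overlapped one another. Of 85290 H3K27ac loci, 32.9% had no overlap between the lists of E14.5 and E11.5, and 32.8% between those of E17.5 and E11.5. In the Gse1 locus the mean was 101488 ± 29822 bp for E11.5 (SD, n = 2), 182300 ± 7460 bp for E14.5 (n = 2) and 166800 ± 22340 bp for the 4 lists of E17.5. In share of the locus, the lists ran from 41.7% in E11.5 replicate 2 to 97.3% in E14.5 replicate 1.

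The same locus took the smallest part of the list at E17.5. Per Mb of its own list it held 1437 and 1274 bp at E11.5 and 1298 and 1653 bp at E14.5. It held 1100 and 1031 bp per Mb in the frontal lists and 1112 and 1052 bp per Mb in the occipital lists. All 4 E17.5 lists lay below all 4 earlier ones on this scale. The share of all loci for which this holds was not determined. With lengths scaled to the list total, limma called 12375 of 85290 H3K27ac loci lower at E17.5 than at E11.5 and 11380 higher (adjusted p below 0.05). Against E14.5 it called 0 lower and 0 higher. The mean of E17.5 exceeded that of E11.5 by 65313 bp as called, and once each list was scaled to the same total length it was 136970 bp at E17.5 and 172915 bp at E11.5, a difference of -35944 bp. The direction of the stage difference therefore depends on the scale. Covered length cannot exceed the span of 192750 bp, so a list that nearly fills the locus can gain little as its total grows. Scaling takes no account of this, and E14.5 replicate 2 came to 210825 bp when scaled, more than the span. The part of this limit in the lower values at E17.5 was not tested. Over the 8 lists, log2 covered length and log2 list length had a Pearson r of 0.88 for H3K27ac and 0.91 for H3K4me2, given as a description of lists that share tissue and replicate.

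**Figure D1:**
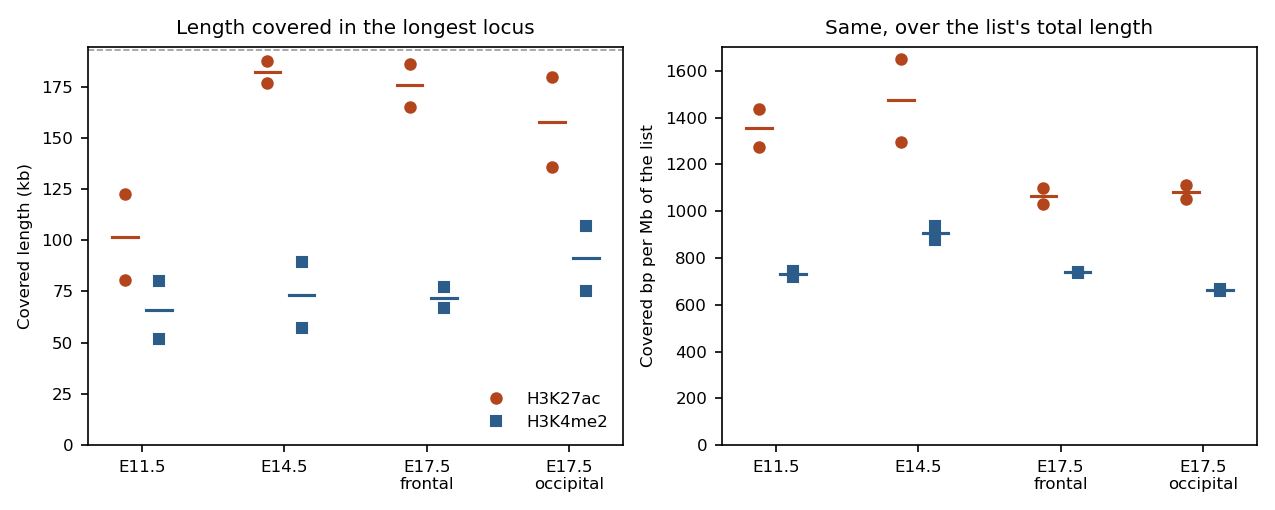
Left, length in kb of the longest H3K27ac locus covered by each list, with the full span as a dashed line. Right, covered bp per Mb of the list's total length. Circles are H3K27ac lists and squares H3K4me2 lists, 2 replicates a tissue, and short lines are means. H3K27ac is lowest at E11.5 on the left, with 122575 and 80400 bp, and lowest at E17.5 on the right, with 1031 to 1112 bp per Mb.

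The locus was called as few regions in most later lists and as many at E11.5. The E11.5 lists held 29 and 31 separate H3K27ac regions in it, and the E14.5 lists 3 and 10. The frontal lists held 6 and 13 regions and the occipital lists 8 and 25, so that occipital replicate 2 came close to the E11.5 lists. The widest region spanned 25350 and 10250 bp at E11.5, 115300 and 51625 bp at E14.5, 91900 and 51325 bp in frontal cortex and 91225 and 22600 bp in occipital cortex. In its own list that region ranked number 16 and number 39 by width at E11.5, number 1 and number 3 at E14.5, number 1 and number 10 in frontal cortex, and number 2 and number 42 in occipital cortex. The longest break between regions was 8825 and 14375 bp at E11.5, 2000 and 3375 bp at E14.5, 1650 and 4575 bp in frontal cortex and 3250 and 5875 bp in occipital cortex. Replicate 1 had the wider of these regions in every tissue, and its H3K27ac list was also the longer in every tissue (85.3 and 63.1 Mb at E11.5, 144 and 107 Mb at E14.5, 169 and 160 Mb in frontal cortex, 162 and 129 Mb in occipital cortex). The part of list length in these counts was not tested.

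**Figure D2:**
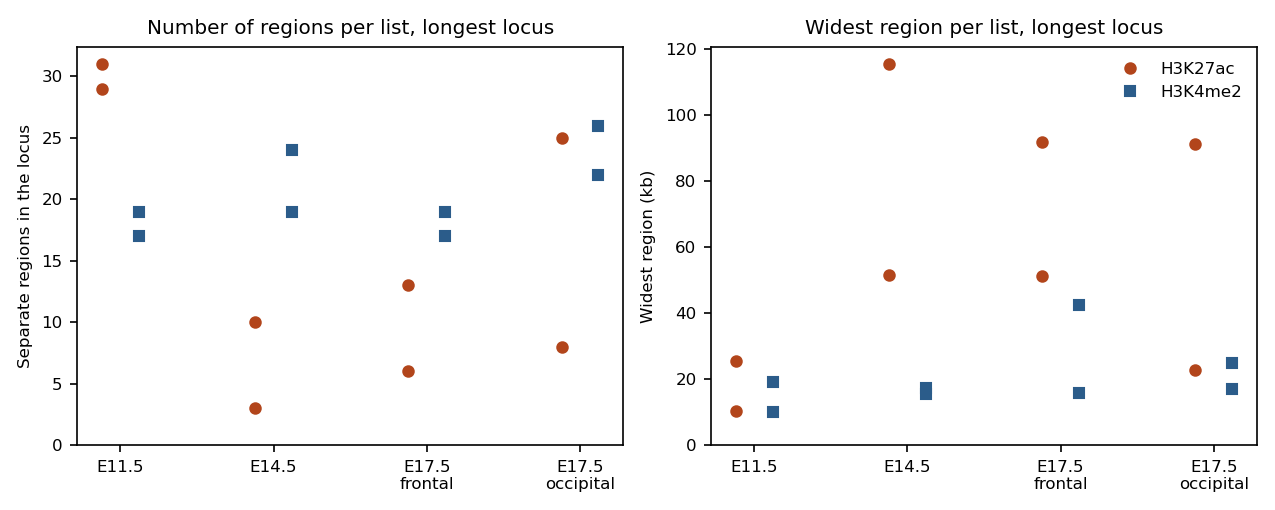
Number of separate regions (left) and width of the widest region in kb (right) in the longest H3K27ac locus, for each list. Circles are H3K27ac and squares H3K4me2. H3K27ac has 3 to 25 regions in the later lists, against 29 and 31 at E11.5, while H3K4me2 has 17 to 26 at every stage.

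How long the locus is depends on which lists are merged. Leaving out E17.5 frontal replicate 1 shortened it to 150375 bp, and leaving out E14.5 replicate 1 to 178450 bp. Leaving out any other single list gave 192575 to 192750 bp. It stayed the longest H3K27ac locus in each of these 8 mergers. From the E14.5 lists alone it was again the longest, at 115475 bp. Merged from the frontal or the occipital lists alone it came 2nd, at 91901 and 92825 bp, behind a locus on chromosome 14, and from the E11.5 lists alone it ranked number 15, at 25950 bp. Counting only bases in at least 2 lists left a longest stretch of 150200 bp, still the longest. With at least 4 lists it was 51825 bp and ranked 2nd, and with all 8 lists 9575 bp and number 25. The locus is also separated from its left neighbour by only 849 bp. Joining regions up to 1000 bp apart gave a locus of 263774 bp, and up to 2500 bp 362025 bp, each again the longest.

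**Figure D3:**
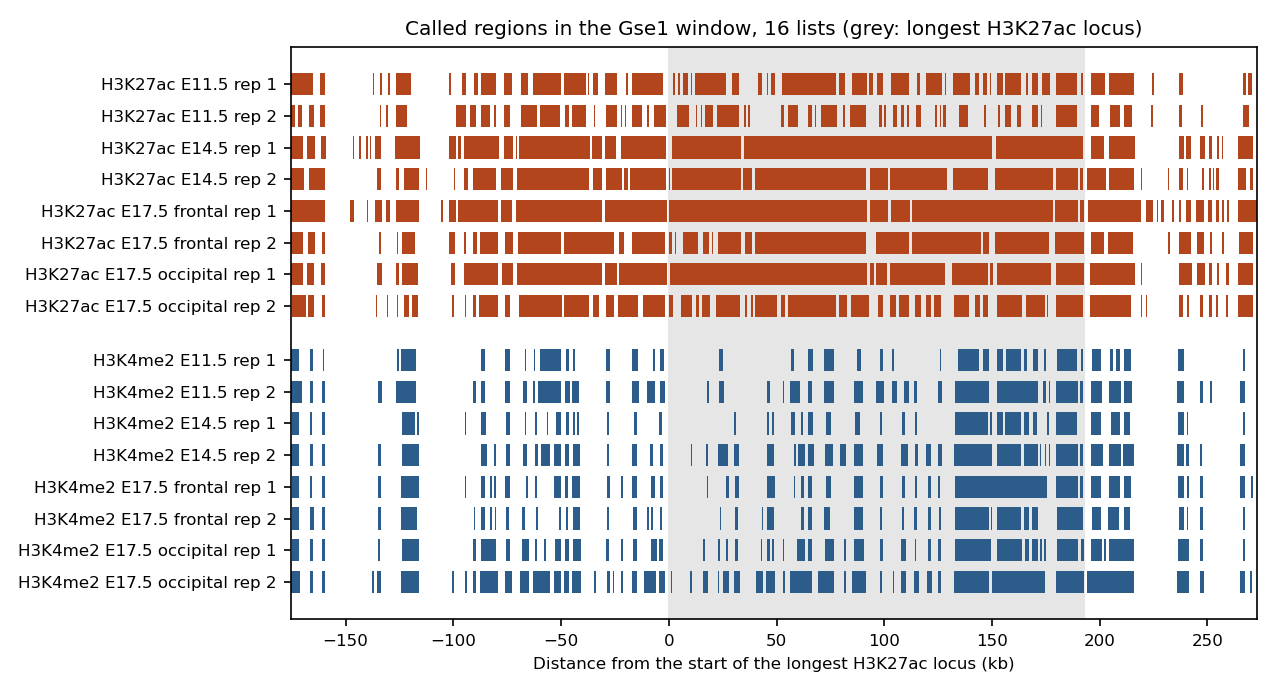
Called regions in the window for all 16 lists, H3K27ac above H3K4me2, against distance in kb from the start of the longest H3K27ac locus (grey). H3K27ac of E14.5 replicate 1 shows 3 separate bars in the grey span, against 29 and 31 in the E11.5 lists, and H3K4me2 is densest from 132 kb to the end of the span.

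Of the 69050 bp that were in both E11.5 H3K27ac lists, every base was also in at least 1 later list. In all 8 lists lay 64275 bp (33.3% of the locus) in 26 blocks, the longest of which ran from 123055126 to 123064700 (9575 bp). The next longest blocks ran from 122945976 to 122953025 (7050 bp) and from 122960076 to 122966725 (6650 bp). Another 17100 bp (8.87%) were in neither E11.5 list and in all 6 later lists, in 27 blocks of at most 2350 bp. The longest of these began 43.1 kb from the start of the locus, at 122918401. A base is more easily missing from 2 lists than from 6, and the E11.5 lists were the shortest, so the counts in the 2 directions are not on the same footing.

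Some breaks recurred. In 17 stretches, 23876 bp in all, each base was in at most 4 of the 8 H3K27ac lists. The longest ran from 123023426 to 123027575 (4150 bp), and the next were 123004001 to 123007025 (3025 bp) and 123052401 to 123054775 (2375 bp). At 15 of the 17 neither E11.5 list had a region, and at 13 both E14.5 lists had one over at least part of the stretch. At 11 of the 17 no H3K4me2 list had a region. Of their length, 68.9% was in no H3K4me2 list and 0 bp in all 8. Of the bases in all 8 H3K27ac lists, by comparison, 41.9% were in all 8 H3K4me2 lists and 12.3% in none. H3K4me2 was in 1 to 3 lists at 3 of the other breaks and in at least 6 at the remaining 3. All 8 H3K4me2 lists had 275 to 4150 bp in the longest break, 7 lists had it from 123019976 to 123020975 (median 1000 bp) and 6 from 123064977 to 123066126 (median 99 bp).

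**Figure D4:**
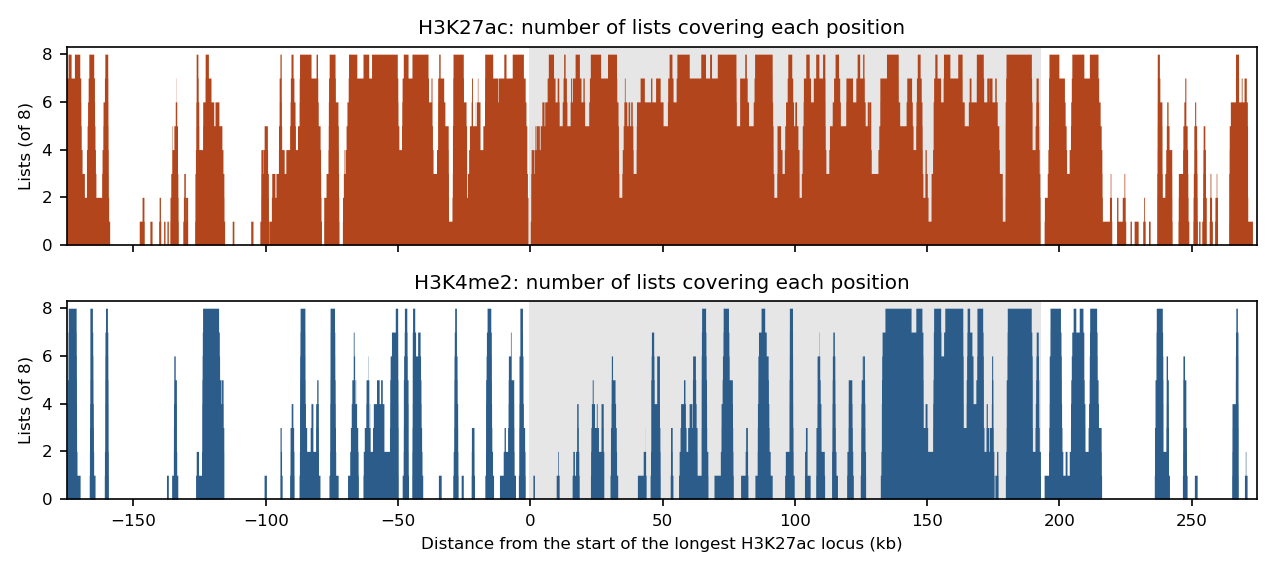
Number of lists, of 8, that cover each position of the window, H3K27ac above and H3K4me2 below, against distance in kb from the start of the longest H3K27ac locus (grey). H3K27ac is in all 8 lists over 64275 bp of the grey span in 26 blocks, and H3K4me2 over 39879 bp in 11 blocks that gather towards the right.

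H3K4me2 lay in islands within the locus and gathered at its far end. The lists covered 51600 and 80150 bp at E11.5, 57200 and 89225 bp at E14.5, 77050 and 66775 bp in frontal cortex and 75150 and 107025 bp in occipital cortex. The stages overlapped, and in each tissue the replicate with the longer list had the larger value. The number of regions was 17 and 19 at E11.5, 19 and 24 at E14.5, 17 and 19 in frontal cortex and 26 and 22 in occipital cortex. In all 8 lists lay 39879 bp (20.7%) in 11 blocks, and 71251 bp (37.0%) lay in none. The locus held much of this mark at every stage. Set beside 11654 stretches of the same length along the genome with H3K4me2 in any list, it ranked between 2 and 11 in covered length in each of the 8 lists. The locus is itself a whole stretch in this set, while fixed lengths can cut through other loci. It was also chosen for its H3K27ac, and over the genome a median of 67.8% of H3K4me2 lay under H3K27ac. The ranks are therefore a description, and the part of this choice in them was not tested.

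By position, H3K4me2 and H3K27ac differed within the locus. Cut into 5 equal parts of 38550 bp, its last part held H3K4me2 over 58.3% to 86.7% of its length, and the part before it over 38.4% to 65.2%. In the first part the share was 2.01% to 25.5%, and in the following parts 20.9% to 66.0% and then 11.1% to 37.4%. In every one of the 8 lists the last part held more H3K4me2 than any of the others. H3K27ac showed no such slope, with medians over lists of 80.2%, 96.3%, 86.6%, 83.7% and 92.1% along the 5 parts.

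**Figure D5:**
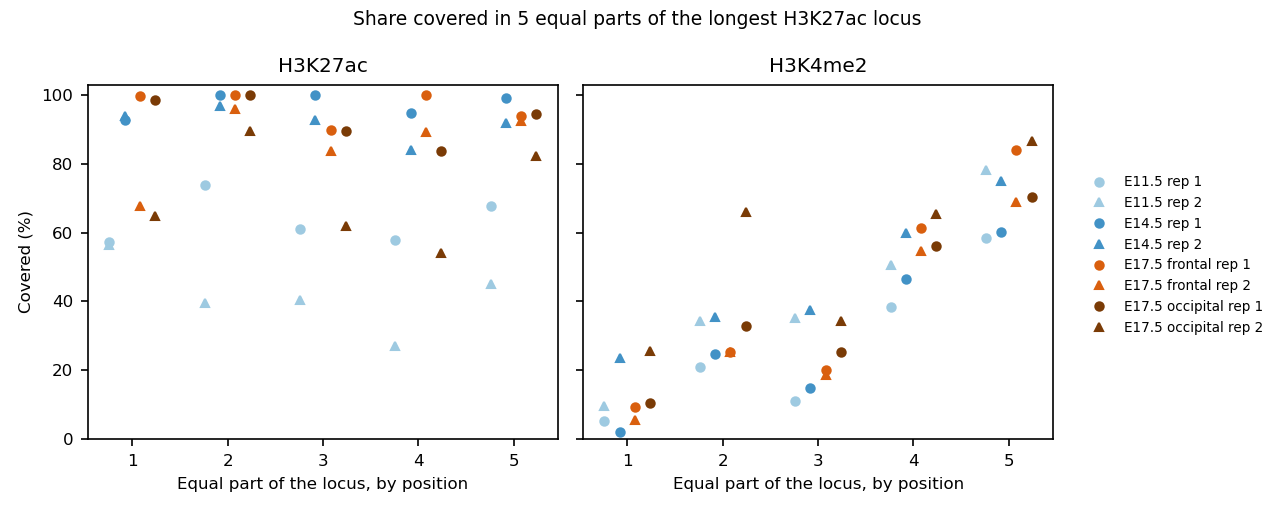
Percent of each of 5 equal parts of the longest H3K27ac locus, in order of position, that each list covers (H3K27ac left, H3K4me2 right; circles replicate 1, triangles replicate 2, colours the tissues). H3K4me2 covers 2.01% to 25.5% of the first part and 58.3% to 86.7% of the last.

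The far end held the longest H3K4me2 locus of the window, from 123007601 to 123050625. At 43025 bp it was the 8th longest of 91956 H3K4me2 loci. It was covered over 26825 and 36050 bp at E11.5, 30675 and 36150 bp at E14.5, 42500 and 32750 bp in frontal cortex, and 34750 and 41200 bp in occipital cortex. Only in frontal replicate 1 was it a nearly unbroken region, of 42500 bp, which ranked number 3 by width in that list. Past a short locus from 123050927 to 123052125 (1199 bp, in 3 lists) lay another, from 123054876 to 123068150. This last locus was covered over 9925 and 11250 bp at E11.5 and 9725 and 11475 bp at E14.5. In frontal cortex it was covered over 11175 and 12100 bp and in occipital cortex over 11275 and 12950 bp. The 3 longest blocks in all 8 H3K4me2 lists ran from 123009351 to 123019225, from 123031976 to 123038776 and from 123055601 to 123064650, with centres 21088 and 45838 bp beyond that of the first. The last of them lies within the longest block of H3K27ac shared by all 8 lists.

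Most H3K4me2 in the locus lay under H3K27ac of the same tissue and replicate. The share was 90.5% and 58.3% at E11.5, 100% and 97.6% at E14.5, 99.8% and 97.5% in frontal cortex, and 98.5% and 90.4% in occipital cortex. E11.5 replicate 2 stands apart, with 33450 bp of H3K4me2 outside H3K27ac, and its H3K27ac list was the shortest of the 8. Over the genome its share was 40.4%, also the lowest of the 8 pairs, where the highest was 83.7%. The locus was chosen for the extent of its H3K27ac, so these shares are a description. The length that H3K27ac covered in it was 1.00 to 3.28 times that of H3K4me2 (median 2.38), beside 0.57 to 2.21 (median 1.33) over the genome. Of the H3K27ac in the locus, 30.5% to 71.2% (median 41.2%) lay under H3K4me2, beside 37.8% to 71.4% (median 52.3%) over the genome. Of the 17100 bp that had H3K27ac in all 6 later lists and in neither E11.5 list, 41.4% had H3K4me2 in at least 1 E11.5 list and 7.46% had it in both, beside 42.0% and 26.4% of the whole locus. Those bases were picked for having no H3K27ac at E11.5, where most H3K4me2 lay under H3K27ac. A lower share among them is not separate from that choice.

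The covered length of H3K4me2 over the locus did not change past the threshold between stages or areas. It was tested as log2(covered bp + 200) with limma among 11083 stretches of the locus's length that were covered in at least 2 lists. E14.5 averaged 73213 bp and E11.5 65875 bp, a log2 difference of 0.15 ± 0.32 (SE, n = 2 each; limma adjusted p = 1). E17.5 averaged 81500 bp, with a log2 difference of 0.32 ± 0.28 from E11.5 (adjusted p = 0.55) and of 0.17 ± 0.28 from E14.5 (adjusted p = 0.65, limma). Frontal cortex averaged 71913 bp and occipital cortex 91088 bp, a log2 difference of -0.32 ± 0.32 (adjusted p = 0.65, limma). The 95% intervals ran from -0.61 to 0.91, from -0.34 to 0.98, from -0.49 to 0.82 and from -1.08 to 0.44, and changes of either direction lie within each of them.

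These tests called few stretches anywhere. Adjusted p was below 0.05 for 0.704% of stretches between E17.5 and E11.5 and for 0% in each of the other 3 comparisons, where 293 (E14.5 and E11.5), 2041 (E17.5 and E14.5) and 801 (frontal and occipital cortex) of 11083 had an unadjusted limma p below 0.05. The Gse1 locus was not among them. The median stretch itself moved by -0.15, 0.38, 0.57 and -0.46 on the log2 scale in the order of the comparisons above. Relative to it the locus stood at 0.30, -0.063, -0.40 and 0.14. Scaling to list length gave log2 differences of 0.31, -0.063, -0.37 and 0.16, so that 3 of the 4 signs turned. Without E11.5 replicate 1 the E14.5 difference from E11.5 was -0.17, without E14.5 replicate 2 it was -0.17, and without E14.5 replicate 1 the E17.5 difference from E14.5 was -0.15.

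Single H3K4me2 loci were tested one by one, 43 of the 49 in the window being in at least 2 lists. Between E14.5 and E11.5, 1 of the 43 changed and it rose, where 3.94% of 63453 loci changed over the genome and 1.87% rose. Between E17.5 and E11.5, 2 rose and 1 fell, which is 3 of 43 beside 22.7% over the genome, where 19.5% rose and 3.13% fell. As given below, the locus that fell and the one that rose at both later stages entered the test only through the lists where they are high. None passed between E17.5 and E14.5 (13.6% over the genome) or between frontal and occipital cortex (9.93%), where limma gave 4 and 6 loci with an unadjusted p below 0.05. The median of the 43 log2 changes was 0.34 between E17.5 and E11.5, beside 0.37 for all loci. These counts hang on single lists. Between E17.5 and E11.5 the count was 0 without E11.5 replicate 1, 7 without E11.5 replicate 2 and 1 without occipital replicate 1, and scaled to list length it was 3 higher and 6 lower. Between E14.5 and E11.5 it was 0 without E11.5 replicate 1, either frontal list or occipital replicate 1, 2 without E11.5 replicate 2 and 3 without E14.5 replicate 1. Without E14.5 replicate 2 or occipital replicate 2 it was 1, and that locus fell. Between E17.5 and E14.5 it was 5 without E14.5 replicate 2, 2 without E11.5 replicate 2, and 1 without E11.5 replicate 1 or either frontal list. Between frontal and occipital cortex it was 2 without either E14.5 list and 1 without either E11.5 list or frontal replicate 1.

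The H3K4me2 locus that rose at both later stages lies inside the longest H3K27ac locus, from 122905426 to 122908325. Neither E11.5 list had a region there (0 bp). It was covered over 775 and 2475 bp at E14.5, 1950 and 1400 bp in frontal cortex and 1725 and 2750 bp in occipital cortex, and no later list overlapped E11.5. Over all 63453 loci, the lists of both sides did not overlap at 17.8% for E14.5 and 27.9% for E17.5 against E11.5. This locus entered the test only through later lists. A fall could not have been found there, so the test gives no separate support for the rise. The limma adjusted p was 0.0050 for E17.5 and 0.049 for E14.5 against E11.5. Without E11.5 replicate 1 the first became 0.057. The second held only when E14.5 replicate 1 was left out (0.034) and lay between 0.061 and 0.19 without each of the other 7 lists. It was also lost with 1000 bp added in place of 200 (0.22), with loci in at least 3 lists (0.073) or in any list (0.053), with regions up to 1000 bp apart merged (0.0504) and with the replicate number as a block (0.082). H3K27ac covered 2450 to 2900 bp of this locus in all 8 lists, the E11.5 lists included.

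Another H3K4me2 locus rose upstream of the domain, from 122787876 to 122795775. It was covered over 4225 and 3225 bp in E17.5 frontal cortex and 7125 and 7900 bp in E17.5 occipital cortex, against 1900 and 2125 bp at E11.5, and the E14.5 lists had 2025 and 3725 bp. All 4 E17.5 lists lay above both E11.5 lists, and the occipital lists above the frontal ones. Over the genome, 27.9% of H3K4me2 loci had no overlap, in either direction, between the lists of E17.5 and E11.5. Between frontal and occipital cortex the share was 47.5%, and this locus did not pass the test there. The log2 change of E17.5 over E11.5 was 1.31 ± 0.25 (SE; limma adjusted p = 0.016), which lay 0.94 above the change of the median locus. The adjusted p was 0.11 without E11.5 replicate 1, 0.058 without E11.5 replicate 2, 0.061 without occipital replicate 1 and 0.068 without occipital replicate 2.

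The H3K4me2 locus that fell runs from 122978926 to 122981075, inside the domain. At E17.5 it was listed at 0 bp in both frontal lists and in occipital replicate 1 and was covered over 625 bp in occipital replicate 2, against 950 and 2150 bp at E11.5. Both E14.5 lists had 0 bp. The locus reached the 2 lists needed for testing only through E11.5, where it is high. The test therefore gives no separate support for the fall. The log2 change was -2.53 ± 0.64 (SE; limma adjusted p = 0.044). It passed without occipital replicate 2 (0.015) and not without each of the other 7 lists, where the adjusted p was 0.067 to 0.15. It was 0.061 with loci in at least 3 lists and 0.067 with loci in any list, and with 1000 bp added the log2 change was -1.13. H3K27ac covered 1650 to 2150 bp of this locus in the 8 lists.

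The longest H3K4me2 loci of the window showed no change past the threshold. For the locus from 123007601 to 123050625 the log2 change between E17.5 and E11.5 was 0.27 ± 0.22 (limma adjusted p = 0.43). For the locus from 123054876 to 123068150 it was 0.16 ± 0.12 (limma adjusted p = 0.39). The locus from 122812026 to 122825375 was covered over 4225 and 1825 bp in E17.5 frontal cortex and 5275 and 11050 bp in E17.5 occipital cortex, against 10100 and 12000 bp at E11.5. Its lists overlapped and its log2 change was -1.21 ± 0.51 (adjusted p = 0.16). Of the other loci over 10 kb, that from 122748751 to 122759450 had 6725 to 9075 bp in the 8 lists, that from 122931326 to 122942450 had 3025 to 10600 bp and that from 123069526 to 123091250 had 10900 to 21725 bp.

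Outside the longest locus, the window held 29 H3K27ac loci, of which 20 were in at least 2 lists and could be tested. Between E14.5 and E11.5, 1 of 20 changed, a rise, beside 7.48% of 85290 loci over the genome, where 6.52% rose. Between E17.5 and E11.5, 2 of 20 changed, each a rise, beside 19% over the genome, where 14934 loci rose and 1248 fell. As given below, the locus that rose at both later stages entered the test only through later lists. None passed between E17.5 and E14.5 (1.13% over the genome) or between frontal and occipital cortex (2.31%), where limma gave 1 locus each with an unadjusted p below 0.05. Between E17.5 and E11.5 the log2 changes were above 0 at 18 of the 20 loci, with a median of 0.59, below the 1.01 of all loci. Between E17.5 and E11.5 the count was 0 without E11.5 replicate 2 and 4 without frontal replicate 2, and scaled to list length it was 1 higher and 1 lower. Between E14.5 and E11.5 it was 0 when any of the E11.5 or E14.5 lists was left out and 2 without either frontal list.

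The H3K27ac locus that rose at both later stages runs from 123125752 to 123127475, downstream of the domain. Neither E11.5 list had a region there (0 bp). The E14.5 lists covered 1650 and 900 bp of it, and the later ones 1425 and 825 bp in frontal cortex and 1225 and 1300 bp in occipital cortex. All 6 later lists thus held a region there, and the locus entered the test only through them. A fall could not have been found, so the test gives no separate support for the rise. The limma adjusted p was 0.0088 for E17.5 and 0.022 for E14.5 against E11.5. Without E11.5 replicate 2 these became 0.052 and 0.098, and the second was also above 0.05 without each of E11.5 replicate 1 (0.060), E14.5 replicate 1 (0.12) and E14.5 replicate 2 (0.053). With each list cut to the same number of its widest regions the 2 values were 0.17 and 0.22, and with 1000 bp added the second was 0.079. H3K4me2 was listed inside it in 1 list, that of E11.5 replicate 2, from 123126326 to 123127375 (1050 bp).

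The other H3K27ac locus that rose lies at the end of the window, from 123139276 to 123148276. It was covered over 8825 and 6575 bp in E17.5 frontal cortex and 7125 and 7075 bp in E17.5 occipital cortex, against 3075 and 2475 bp at E11.5, with 7125 and 4875 bp at E14.5. Every E17.5 list lay above both E11.5 lists, where 32.8% of 85290 H3K27ac loci had no overlap between these lists in either direction. The median log2 change of all H3K27ac loci was 1.01 as called and 0.62 when scaled to list length. This locus lay above the first and below the second. Its log2 change as called was 1.35 ± 0.21 (SE; limma adjusted p = 0.012), which lay 0.34 above that of the median locus. Scaled to list length it was 0.33 (adjusted p = 0.17, limma), and without E11.5 replicate 2 the adjusted p was 0.076.

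The left neighbour of the domain, from 122804252 to 122874426, was itself a long H3K27ac locus of 70175 bp. It was covered over 50225 and 43625 bp at E11.5, 63950 and 63575 bp at E14.5, 68725 and 61400 bp in frontal cortex and 67075 and 57850 bp in occipital cortex. It was thus already largely covered at E11.5, and its log2 change between E17.5 and E11.5 was 0.44 ± 0.46 (limma adjusted p = 0.53). The right neighbour, from 123069526 to 123095100, was covered over 17725 to 24775 bp at E17.5, against 17975 and 11825 bp at E11.5 (0.50 ± 0.26, adjusted p = 0.24, limma). The remaining loci over 10 kb, from 122697752 to 122716275, from 122748401 to 122759725 and from 122776501 to 122796350, had log2 changes of 0.24, 0.39 and 0.23 (limma adjusted p at least 0.39).

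Among the 20 longest H3K27ac loci with a region in all 8 lists, 3 followed the Gse1 domain most closely in covered length over the 8 lists. They lay on chromosome 9 from 57880501 to 57967775 (Pearson r 0.98 of log2(covered bp + 200)), on chromosome 5 from 112487401 to 112601326 (0.97) and in the same window from 122804252 to 122874426 (0.97). The points share their libraries, and list length moves with all of them. High values were common in this set, where the lowest r was 0.54 and the next lowest 0.82. The locus on chromosome 9 carried 21525 to 41500 bp of H3K4me2 at E17.5, against 11625 and 27725 bp at E11.5. The locus on chromosome 5 carried 8000 to 16200 bp at E17.5, against 6450 and 13250 bp at E11.5. H3K27ac covered 70575 to 85050 bp of the chromosome 9 locus at E17.5, against 50450 and 32600 bp at E11.5. On chromosome 5 it covered 46300 to 111650 bp at E17.5, against 25275 and 12225 bp at E11.5.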

How the data were processed

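Each deposited file is the list of regions that the authors called in 1 ChIP sample, with chromosome, start and end and no score or count from the authors, so the values are positions in bp. The submitters' processing notes name Bowtie 0.12.9 and the builds hg19 and mm9, with no role stated, and the mouse lists were read as mm9. Regions were called with a tool and threshold not given in the sources used here. The 16 mouse lists were read, and the 10 rhesus lists were not used here. Depth is unknown, and the total length of each list is given in its place.

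The window, its members, tests and alternatives were chosen with earlier results of these data known. Named are Gse1 and its neighbours, window loci called in any comparison, window loci over 10 kb, breaks uncovered in at least 4 lists, and the 3 loci most like the domain. Loci were merged over the 8 lists of a mark and kept when in at least 2. Covered length was analysed as log2(bp + 200) with limma 3.58.1 in R 4.3.3 over all loci or tiles of the mark, a mean per tissue, E17.5 being the mean of its areas, with Benjamini-Hochberg adjustment within a comparison and a threshold of 0.05. The added 200 bp understates changes of short loci. The fit was tested on simulated data. Gene order and promoters are from RefSeq on GRCm38.p6, which was matched by symbol. The rest used Python 3.11.15, numpy 2.4.6, pandas 2.3.3 and matplotlib 3.10.9. Positions are 1-based.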

Additional observations from a re-analysis of the deposited data

How the results depend on the processing

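Depth is unknown, and list length stood in for it. Scaled length can exceed the span of the domain, as H3K27ac of E14.5 replicate 2 did at 210825 bp. With covered length scaled to the list total, the H3K27ac difference of E17.5 from E11.5 over the domain was -35944 bp, and the log2 differences of H3K4me2 over it were -0.063 for E17.5 against E11.5, -0.37 for E17.5 against E14.5 and 0.16 for frontal against occipital cortex, all of opposite sign to those reported. The H3K27ac difference was 44225 to 86400 bp with each list left out. H3K4me2 over the domain had no adjusted p below 0.05 under any of the 6 other settings or with any list left out. With each list left out its log2 differences ran from -0.17 to 0.47, 0.0010 to 0.63, -0.15 to 0.49 and -0.58 to -0.07, in the order E14.5 against E11.5, E17.5 against E11.5, E17.5 against E14.5, and frontal against occipital cortex.

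Counts of called H3K4me2 loci between E14.5 and E11.5 were 0 with 1000 bp added, with loci in at least 3 lists or in any list and with regions up to 1000 bp apart merged, 2 when scaled and 3 with each list cut to the same number of its widest regions (equal numbers below). Between E17.5 and E11.5 they were 9 when scaled (3 higher and 6 lower) and 6 with equal numbers. Between E17.5 and E14.5 they were 1 when scaled and 2 with equal numbers, and between frontal and occipital cortex 3 with equal numbers. With each list left out they were 0 to 3, 0 to 7, 0 to 5 and 0 to 2 in the same order of comparisons. H3K27ac counts outside the domain were 0 between E14.5 and E11.5 with 1000 bp added and with equal numbers, 1 between E17.5 and E11.5 with equal numbers, and 0 to 2 and 0 to 4 with each list left out. They stayed 0 in the other 2 comparisons under all settings tried. Where a setting leaves a tissue with 1 list, that list is assumed to vary like the others.

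Same-numbered replicates of different tissues correlated at -0.20 to 0.38 in their deviations, so the numbers were not taken to pair samples. With the replicate number as a block, H3K4me2 over the domain had adjusted p of 1.00, 0.40, 0.56 and 0.51, called H3K4me2 loci were 0, 4, 0 and 1, and called H3K27ac loci 2, 3, 0 and 0. Joining regions up to 1000 or 2500 bp apart, as for the length of the domain, was chosen after seeing the data. The causes of these differences were not tested.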
